A study of Mus musculus with 3 samples.

Results

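The cells described here are the Foxp3-expressing T cells of mouse blood, the regulatory T cells by their defining transcription factor, as they appear in single-cell RNA sequencing of 3 libraries. A cell was taken where it had at least 500 UMIs (unique molecular identifiers, each counting 1 captured RNA molecule), at least 200 genes, at most 10% of its UMIs from mitochondrial genes and under 5% from S100a8 and S100a9. It also had at least 2 UMIs over Cd3d, Cd3e, Cd3g and Trac, under 3 UMIs over Cd79a, Cd79b and Ms4a1, under 2 UMIs over Cd8a and Cd8b1, and at least 1 UMI of Foxp3. The members were therefore chosen on measured values, and the level of Foxp3 and of the other gating genes in them is no finding. These conditions left 220 Foxp3+ cells of 29754 cells that passed the filters on UMIs, genes and mitochondrial share: 37 of 12023 in the HDCA+CLP library, 57 of 10840 in the CLP library and 126 of 6891 in the Sham library.

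The blood came from C57BL/6J mice, and each group is 1 library, sampled 12 h into its condition. The group called HDCA+CLP had HDCA treatment together with CLP, the group called CLP was CMC-treated with CLP, and the group called Sham had Sham treatment, with no mention of CMC in its label. The labels leave these abbreviations unexpanded, describe the cells as peripheral blood mononuclear cells, name no sort, and do not give the number of animals behind a library. Nothing here measures the spread between animals, so differences between libraries carry counting error only and no p-value was computed for them.

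Foxp3 is the transcription factor that sets up and maintains the regulatory T cell program, and such cells restrain the activation of other lymphocytes and of antigen-presenting cells. They depend on interleukin-2 from other cells, which they take up through the high-affinity receptor containing the alpha chain Il2ra, and they act partly through Ctla4, which removes costimulatory ligands from antigen-presenting cells. Those made in the thymus commonly carry the factor Ikzf2 (Helios). In blood and lymphoid organs, regulatory T cells range from a resting state to an activated effector state, in which they gain costimulatory receptors and receptors for inflamed tissue.

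The Foxp3+ cells held 149139 UMIs in HDCA+CLP, 277943 in CLP and 862214 in Sham, and their median depth was 3314, 3891 and 6251 UMIs per cell, so the 3 libraries were sampled unequally. Levels are given as CPM, the UMIs of a gene summed over the Foxp3+ cells of a library per 1000000 of their UMIs, with exact 95% Poisson intervals where an interval is printed. The libraries shared 34 barcodes (HDCA+CLP and CLP), 17 (HDCA+CLP and Sham) and 26 (CLP and Sham), none of them a Foxp3+ cell. A doublet caller marked 0 of 37 Foxp3+ cells in HDCA+CLP, 4 of 57 in CLP and 2 of 126 in Sham; these cells were kept and then left out as an alternative. Other cell types left RNA in the class: a list of 12 neutrophil markers summed to 1388 CPM in the Foxp3+ cells of HDCA+CLP (10 of 12 detected), 2493 CPM in CLP (11 of 12) and 12.8 CPM in Sham (5 of 12), with Ly6g at 0 in all 3, and its part in the results below was not tested. Without the 5 cells described next, that list still summed to 1391 CPM in HDCA+CLP, 895 CPM in CLP and 12.8 CPM in Sham.

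A separate mark set a few cells apart. In HDCA+CLP, 1 Foxp3+ cell held 195 UMIs of 12 monocyte markers, and in CLP 4 cells held 124 to 252, whereas the next highest Foxp3+ cells held 10 UMIs in HDCA+CLP and 14 in CLP, and no Sham cell exceeded 19. Those 5 cells carried 8.87% of all Foxp3+ UMIs in HDCA+CLP and 23.2% in CLP, and the doublet caller marked 3 of the 4 in CLP. The monocyte list summed to 1824 CPM in HDCA+CLP (10 of 12 detected), 2828 CPM in CLP (12 of 12) and 418 CPM in Sham (8 of 12), and without the 5 cells to 567, 623 and 418 CPM, with Csf1r and Fn1 then at 0 in all 3 libraries. A list of 12 natural killer cell markers behaved alike, at 825, 1522 and 37.1 CPM with the 5 cells and at 177, 370 and 37.1 CPM without them, with Ncr1 at 0 throughout. Results that rest on these 5 cells, called the monocyte-marker cells, are given with and without them. A wider criterion was 3 or more UMIs summed over monocyte, natural killer cell, platelet and erythroid markers, called other-type markers below. Neutrophil and B cell markers were not part of it. It was met by 18 of 37 Foxp3+ cells in HDCA+CLP, 34 of 57 in CLP and 54 of 126 in Sham. For some results values without those cells are given too. The monocyte markers include Ccr2, which is also on the effector list used below. Leaving those cells out can therefore also change the mix of Foxp3+ cells, which was not tested.

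The label of the class held against markers that the gate did not use. A UMI of Il2ra, Ikzf2 or Ctla4 was present in 32 of 37 Foxp3+ cells in HDCA+CLP (86.5%, exact interval 71.2 to 95.5%), 54 of 57 in CLP (94.7%, 85.4 to 98.9%) and 119 of 126 in Sham (94.4%, 88.9 to 97.7%). In Foxp3- CD4 T cells of the same libraries, gated alike but with no Foxp3 UMI and at least 1 UMI of Cd4, the counts were 87 of 285 (30.5%), 182 of 542 (33.6%) and 153 of 1228 (12.5%). Most Foxp3+ cells thus carried a second marker in every library. Cd4 itself gave a UMI in 13 of 37, 23 of 57 and 76 of 126 Foxp3+ cells, and was not required of them.

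Few Foxp3 UMIs appeared in cells of other types. A Foxp3 UMI appeared in 1 of 381 CD8 T cells in HDCA+CLP (0.262%, median depth 5171 UMIs), 3 of 801 in CLP (0.375%, 6203 UMIs) and 1 of 839 in Sham (0.119%, 8083 UMIs). Among B cells, which do not normally express the gene, it appeared in 0 of 275 in HDCA+CLP (a share of up to 1.09% is allowed by that count, median depth 2706 UMIs), 0 of 280 in CLP (up to 1.07%, 3284 UMIs) and 1 of 2633 in Sham (0.038%, 4268 UMIs). These shares lie below the share of Foxp3+ cells among T cells in each library, although the B cell limits in HDCA+CLP and CLP are loose because few B cells were caught.

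At the edge of the rule, Foxp3+ cells with exactly 1 Foxp3 UMI numbered 20 in HDCA+CLP, 22 in CLP and 63 in Sham, and their Ikzf2 level was 284, 387 and 818 CPM. Cells with 2 or more Foxp3 UMIs numbered 17, 35 and 63, with Ikzf2 at 243, 571 and 756 CPM. Just outside the gate, Foxp3+ cells with only 1 T cell UMI numbered 5, 3 and 1, those with 2 or more Cd8 UMIs numbered 1, 3 and 3, those with at least 3 B cell UMIs numbered 0, 2 and 9, and those with at least 5% S100a8 and S100a9 numbered 4, 7 and 1. Ikzf2 in Foxp3- CD4 T cells stood at 39.2, 27.2 and 29.6 CPM, well under the cells with a single Foxp3 UMI.

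Foxp3+ cells made up a smaller part of the T cells in CLP than in Sham, with HDCA+CLP between them. They were 37 of 1394 gated T cells in HDCA+CLP (2.65%, exact interval 1.88 to 3.64%), 57 of 3166 in CLP (1.80%, 1.37 to 2.33%) and 126 of 3082 in Sham (4.09%, 3.42 to 4.85%). The interval of HDCA+CLP overlaps both others, and that of CLP lies below that of Sham. Detection of a single Foxp3 UMI depends on depth, and gated T cells had a median of 4058.5 UMIs in HDCA+CLP, 4784 in CLP and 6694 in Sham. With every cell thinned to 2000 UMIs and shallower cells left out (47, 72 and 16 T cells, among them 1, 2 and 0 Foxp3+ cells), the shares were 1.86% (1.20 to 2.73%) in HDCA+CLP, 1.07% (0.735 to 1.49%) in CLP and 2.05% (1.58 to 2.62%) in Sham. At equal depth CLP remained below Sham, whereas HDCA+CLP overlapped both.

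**Figure D1:**
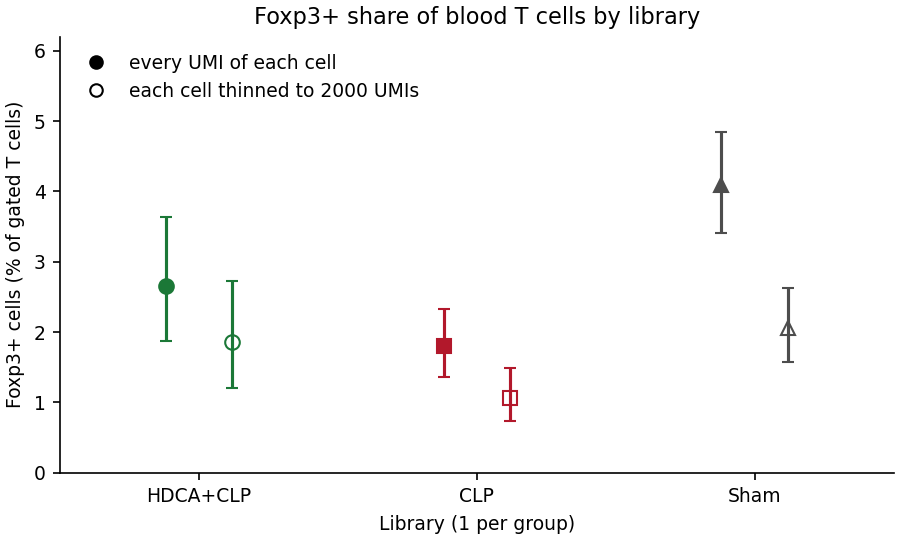
Foxp3+ cells as a percentage of gated T cells in HDCA+CLP, CLP and Sham, with every UMI of each cell (filled) and after thinning each cell to 2000 UMIs (open). Bars are exact 95% binomial intervals and cover counting error only; unthinned, Sham at 4.09% stands above CLP at 1.80%, and thinned, Sham at 2.05% and HDCA+CLP at 1.86% overlap.

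As a share of all kept cells the class was 0.308% in HDCA+CLP, 0.526% in CLP and 1.83% in Sham, a measure that also moves with the number of neutrophils in each library. Among T cells with under 2 Cd8 UMIs the shares were 3.66%, 2.42% and 5.71%. Requiring 2 Foxp3 UMIs gave 1.22%, 1.11% and 2.04% of gated T cells. CLP had a lower value than Sham in each of these denominators and settings. Fewer Foxp3+ cells and less Foxp3 RNA per cell cannot be told apart by a count of cells with a UMI.

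What distinguished Foxp3+ cells from other CD4 T cells was first set against Foxp3- CD4 T cells of the same library, a comparison that all 3 libraries could bear. UMIs were summed per library and class, and edgeR's quasi-likelihood test with the library as a block was run on 7464 genes, with Benjamini-Hochberg adjustment; the p-values measure the spread between 3 libraries that differ in condition. At an adjusted p under 0.05, 146 genes were higher in Foxp3+ cells (1.96% of genes tested) and 67 were lower (0.898%). The genes of regulatory T cell identity led the first group. Of 23 tested members of a list of 30 identity genes, 17 were called higher and 1, Satb1, lower, and the median log2 fold change of the 23 was 2.27 against -0.01 over all tested genes. Satb1 (-0.78, SE 0.20, adjusted p = 0.0469 in edgeR's test) was not called without the monocyte-marker cells (-0.66, adjusted p = 0.0808). That identity list was drawn from general knowledge of the lineage, and its genes partly come with Foxp3 by definition of the class.

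Lrrc32, which encodes the surface anchor of latent TGF-beta (GARP), had the highest fold change of the named genes. It stood at 87.2 CPM in Foxp3+ cells of HDCA+CLP, 54.0 in CLP and 65.0 in Sham, against 1.38, 1.31 and 1.92 CPM in Foxp3- CD4 T cells, a log2 fold change of 5.14 (SE 0.39, edgeR quasi-likelihood adjusted p = 5.08e-06). The summed Foxp3+ value was the higher in each library, from UMIs in 8 of 37, 11 of 57 and 39 of 126 Foxp3+ cells. Ikzf2 stood at 262, 514.5 and 783 CPM in Foxp3+ cells against 39.2, 27.2 and 29.6 CPM in Foxp3- cells (log2 3.94, SE 0.30, edgeR adjusted p = 5.08e-06). Il2ra stood at 107, 115 and 275 CPM against 13.1, 21.3 and 8.27 CPM (log2 3.70, SE 0.40, edgeR adjusted p = 0.000136). The low Il2ra and Ikzf2 values of the Foxp3+ class in the libraries with CLP still exceeded those of Foxp3- cells there.

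Of the tumour necrosis factor receptor family, 3 members on the identity list were called higher. Tnfrsf4 (OX40), a costimulatory receptor, reached 664, 698 and 183 CPM in Foxp3+ cells of HDCA+CLP, CLP and Sham, against 80.5, 41.4 and 10.8 CPM in Foxp3- CD4 T cells (log2 3.65, SE 0.23, edgeR adjusted p = 8.94e-07). Tnfrsf9 (4-1BB), which marks recently stimulated regulatory T cells, was higher by 4.51 on the log2 scale (SE 0.45, edgeR adjusted p = 9.27e-05), and Tnfrsf18 (GITR) by 1.90 (SE 0.22, edgeR adjusted p = 0.000183). All 3 were higher in the Foxp3+ cells in 3 of 3 libraries. Ctla4 followed with log2 2.79 (SE 0.26, edgeR adjusted p = 4.03e-05), and the remaining identity genes named by the rule were Gpr83, Ikzf4 (Eos), the folate receptor Izumo1r (FR4), the interleukin-2 receptor beta chain Il2rb and the actin-capping protein Capg, with log2 fold changes between 2.18 and 3.07.

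**Figure D2:**
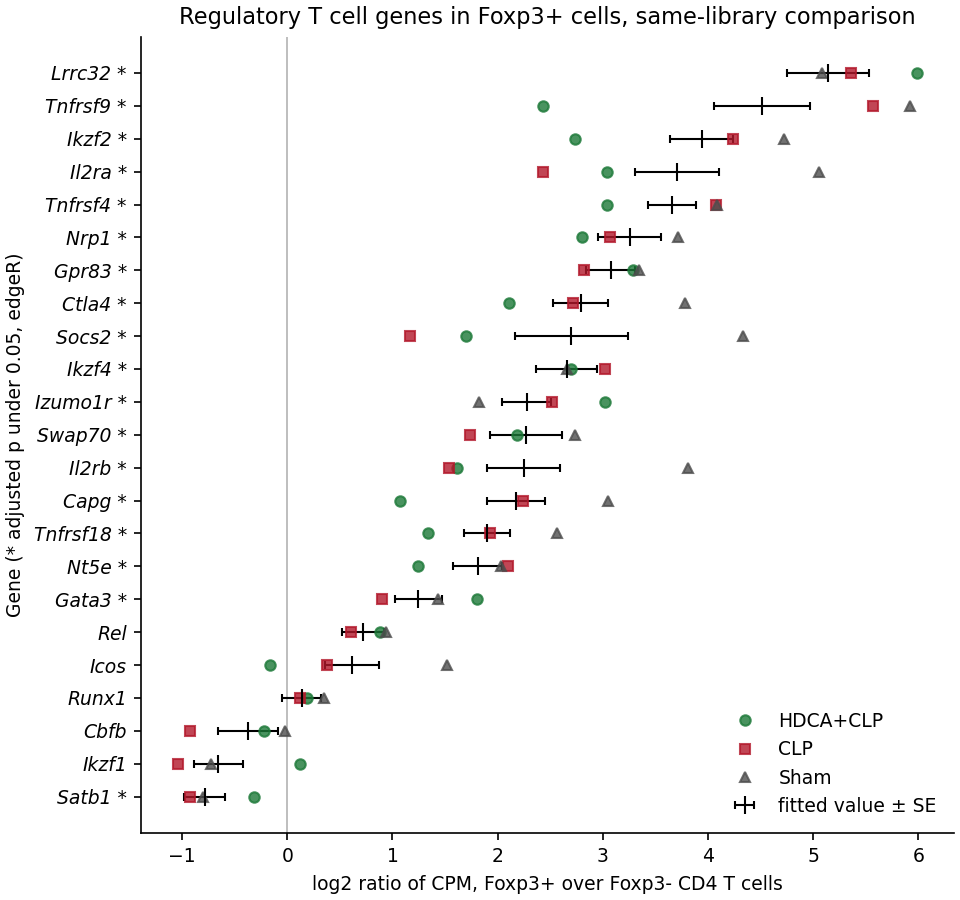
Log2 ratio of CPM, Foxp3+ over Foxp3- CD4 T cells of the same library, for the 23 tested identity genes; coloured points are the 3 libraries and black bars the fitted value ± SE. Genes with an asterisk have an edgeR adjusted p under 0.05; Lrrc32 at 5.14 and Tnfrsf9 at 4.51 lie highest, and Satb1 at -0.78 is the lowest.

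Receptors outside the identity list were also higher. Il1rl1 (ST2), the receptor for the alarmin interleukin-33, had a log2 fold change of 4.39 (SE 0.46, edgeR adjusted p = 0.000113), and Ccr2, a receptor for inflammatory chemokines, one of 2.47 (SE 0.21, edgeR adjusted p = 1.79e-05). Cish, an interleukin-2 induced feedback inhibitor, was higher by 2.49 (SE 0.31, edgeR adjusted p = 0.000426). Each was higher in 3 of 3 libraries, and Il1rl1 rests on few cells, with UMIs in 3, 8 and 13 Foxp3+ cells. Of 19 cytokine receptors tested, 5 were called higher and 1, Tgfbr2, lower.

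Genes lower in Foxp3+ cells included members of the resting naive state. Pde3b, a phosphodiesterase known to be repressed by Foxp3, was at 0, 7.20 and 6.96 CPM in Foxp3+ cells of HDCA+CLP, CLP and Sham, against 66.0, 69.3 and 58.8 CPM in Foxp3- CD4 T cells (log2 -3.46, SE 0.38, edgeR adjusted p = 0.000154). Tcf7 and Lef1, transcription factors of naive and memory T cells, fell by 1.76 (SE 0.23, edgeR adjusted p = 0.000723) and by 1.38 (SE 0.19, edgeR adjusted p = 0.00112) on the log2 scale. Of 18 genes of the resting state, 0 were called higher and 6 lower (Lef1, Tcf7, Satb1, Igfbp4, Actn1 and Dapl1), with a median of -0.50, and without the monocyte-marker cells 1 was called higher and 5 lower. The microtubule regulator Stmn1 and the TGF-beta receptor subunit Tgfbr2 were lower too, by 1.96 and 1.47 (edgeR adjusted p = 0.00088 and 0.00336).

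Interferon genes set the class apart less. Of 38 tested genes of the type I interferon response, 1 was called higher in Foxp3+ cells (Isg20, log2 1.42, SE 0.19, edgeR adjusted p = 0.000735) and 0 lower. Of 20 genes of the interferon-gamma response, 4 were called higher (Gbp2, Gbp3, Gbp7 and Cxcl10) and 1 lower (Tgtp1). The call of Cxcl10 was lost without the monocyte-marker cells: its log2 fold change was 1.72 with them (edgeR adjusted p = 0.0461) and -1.62 without (edgeR adjusted p = 0.36).

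Within the class, CLP was compared with Sham over 5581 genes with at least 20 UMIs in both libraries together. A ratio past 2-fold was seen for 497 genes higher in CLP (8.91%) and 616 lower (11%), and without the monocyte-marker cells, for 357 (6.66%) and 633 (11.8%) of 5359. Interferon-response genes were the clearest group among those higher. Of 40 listed type I interferon genes 31 were measured, and 30 were higher in CLP, with a median log2 ratio of 1.38, and of 17 measured of 24 listed interferon-gamma genes 16 were, with a median of 1.63, beside -0.03 over all measured genes. Without the monocyte-marker cells the counts were 25 of 26 (median 1.17) and 13 of 14 (median 1.69), beside -0.07 over all. Without all cells with other-type markers the medians were 0.78 and 1.58. In Foxp3- CD4 T cells the medians were 1.72 and 1.80 beside 0.04 over all, so the higher interferon level in CLP was also found outside the class. A minimum of UMIs over both libraries favours genes that are high in either of them, and the list members under it were not compared. All 17 measured genes of MHC class I and peptide loading were also higher in Foxp3+ cells of CLP, with a median of 0.59.

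The promoters of 4 of these genes are shown because interferon-activated factors bind a known element there. Each stretch is the 160 bases before the annotated start, from RefSeq on GRCm38.p6: chr19:34640729-34640888 and chr19:34583369-34583528 on the plus strand, chr4:156200819-156200978 on the minus strand and chr3:142620503-142620662 on the plus strand. Capitals mark matches to GAAANNGAA, the core of the interferon-stimulated response element, on either strand, overlapping matches included.
Ifit1: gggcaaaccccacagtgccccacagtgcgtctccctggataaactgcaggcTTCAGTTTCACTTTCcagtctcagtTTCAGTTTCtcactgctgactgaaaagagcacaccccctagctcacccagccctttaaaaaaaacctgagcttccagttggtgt
Ifit3: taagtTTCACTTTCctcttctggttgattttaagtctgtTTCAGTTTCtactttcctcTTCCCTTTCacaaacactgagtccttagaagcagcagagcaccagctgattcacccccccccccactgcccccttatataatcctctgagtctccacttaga
Isg15: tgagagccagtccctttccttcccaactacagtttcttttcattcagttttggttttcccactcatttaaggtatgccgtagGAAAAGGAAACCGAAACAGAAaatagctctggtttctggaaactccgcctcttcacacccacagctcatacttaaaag
Gbp2: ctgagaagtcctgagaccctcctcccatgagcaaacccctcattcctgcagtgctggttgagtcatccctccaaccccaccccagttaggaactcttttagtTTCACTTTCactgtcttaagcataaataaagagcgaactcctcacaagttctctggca
Ifit1, Ifit3 and Isg15 hold 3 matches each and Gbp2 holds 1. In the 250 bases before the start, 13 of 33 promoters of type I interferon genes (39.4%) and 14 of 22 promoters of interferon-gamma genes (63.6%) held a match, against 7.13% of 32851 promoters; a gene can have more than 1 promoter entry. A second motif, TTCNNNGAA, the core of the gamma-activated site, was in 5 of 33 (15.2%) and in 11 of 22, against 7.02% of all promoters. A match describes the letters and shows no binding in these cells.

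Ifit1, which sequesters viral RNA lacking host cap marks, had 107 CPM in Foxp3+ cells of HDCA+CLP (16 UMIs in 11 cells), 245 CPM in CLP (68 UMIs in 19 cells) and 12.8 CPM in Sham (11 UMIs in 6 cells). CLP stood 19.2-fold above Sham (log2 4.26, 3.33 to 5.33). The Ifit1 level in CLP included cells with other-type markers, without which HDCA+CLP was above CLP (log2 0.43). Ifit3, a relative of Ifit1, had 161, 173 and 13.9 CPM, a log2 ratio of 3.63 (2.70 to 4.68) for CLP over Sham. Both genes were thus low in Sham and high in the 2 libraries with CLP. Isg15, a ubiquitin-like modifier, had 228, 367 and 34.8 CPM (log2 3.40, 2.80 to 4.04), and 262 CPM in CLP without the monocyte-marker cells (log2 2.92); its ratio was 1.66 without all cells with other-type markers. The log2 ratio of CLP over Sham in Foxp3- CD4 T cells was 2.49 for Ifit1, 3.28 for Ifit3 and 2.94 for Isg15.

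Gbp2, a guanylate-binding protein induced by interferon-gamma that attacks the membranes around intracellular microbes, had 523 CPM in Foxp3+ cells of HDCA+CLP, 345 in CLP and 59.1 in Sham, with UMIs in 23 of 37, 20 of 57 and 31 of 126 cells. CLP over Sham was log2 2.55 (2.04 to 3.06), or 3.32 without cells with other-type markers, and HDCA+CLP over CLP 0.60 (0.15 to 1.04). Over all Foxp3+ cells, the order of Gbp2 among the libraries thus differed from that of Ifit1, with HDCA+CLP the highest. Without cells with other-type markers, HDCA+CLP was above CLP for both genes, at log2 0.25 for Gbp2 and 0.43 for Ifit1. Gbp2 was the one of these 4 genes that was also called higher in Foxp3+ than in Foxp3- CD4 T cells (log2 1.20, SE 0.21, edgeR adjusted p = 0.00667). Iigp1, an immunity-related GTPase, had 194, 209 and 26.7 CPM (log2 2.97, 2.25 to 3.73), and Serpina3g, an interferon-inducible serine protease inhibitor, 53.6, 108 and 2.32 CPM (log2 5.54, 3.56 to 8.65, from 2 UMIs in Sham). Irf8 had 40.2, 64.8 and 3.48 CPM (log2 4.22, 2.44 to 6.62, from 3 UMIs in Sham).

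Tnfrsf9, Id2, Tnfrsf4, Ctla4, Ifngr1, Socs3 and Hif1a were also higher in CLP than in Sham. Cytokine receptors as a list were split by member: of 17 measured, 8 were higher and 9 lower, with a median log2 ratio of -0.04. That median was 0.36 without cells with other-type markers. The summed level of the list was higher, at 1.534 times that in Sham (1.385 to 1.697). Tnfrsf9 had 107 CPM in Foxp3+ cells of HDCA+CLP (16 UMIs in 6 cells), 421 CPM in CLP (117 UMIs in 21 cells) and 29.0 CPM in Sham (25 UMIs in 14 cells). CLP was 14.5-fold above Sham (log2 3.86, 3.23 to 4.54), and no single cell gave more than 12.8% of its CLP UMIs. The share of Foxp3+ cells with a Tnfrsf9 UMI was 36.8% in CLP (24.4 to 50.7%) and 11.1% in Sham (6.21 to 17.9%), and after thinning to 2000 UMIs 27.3% (16.1 to 41.0%) and 3.97% (1.30 to 9.02%). A larger share of Foxp3+ cells in CLP therefore gave a UMI of the receptor at equal depth. In Foxp3- CD4 T cells the gene was low, at 19.9, 8.86 and 0.479 CPM.

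Id2, a repressor of E-protein transcription factors used by effector lymphocytes, had 73.8, 529 and 36.0 CPM in Foxp3+ cells of HDCA+CLP, CLP and Sham (log2 3.88 for CLP over Sham, 3.31 to 4.49) and 417 CPM in CLP without the monocyte-marker cells (log2 3.54). It was high in CLP alone of the 3 libraries. Tnfrsf4 had 664, 698 and 183 CPM (log2 1.93, 1.62 to 2.24) and Ctla4 650, 874 and 307 CPM (log2 1.51, 1.25 to 1.76), so these receptors were high in both libraries with CLP. The interferon-gamma receptor chain Ifngr1 had 711, 828 and 253 CPM (log2 1.71, 1.44 to 1.99). Socs3, a feedback inhibitor of cytokine signalling, had 308, 403 and 65.0 CPM (log2 2.63, 2.16 to 3.12), and the hypoxia-inducible factor Hif1a 429, 399 and 131 CPM (log2 1.61, 3.05-fold).

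Gzmb, the cytotoxic protease granzyme B, had a higher level in CLP, where most of its UMIs came from 1 cell. Foxp3+ cells had 8 UMIs in 2 cells in HDCA+CLP (53.6 CPM), 201 UMIs in 12 cells in CLP (723 CPM) and 5 UMIs in 3 cells in Sham (5.80 CPM), and 79.1% of the CLP UMIs came from a single cell. The interleukin-10 gene Il10 had 0, 8 and 0 UMIs.

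**Figure D3:**
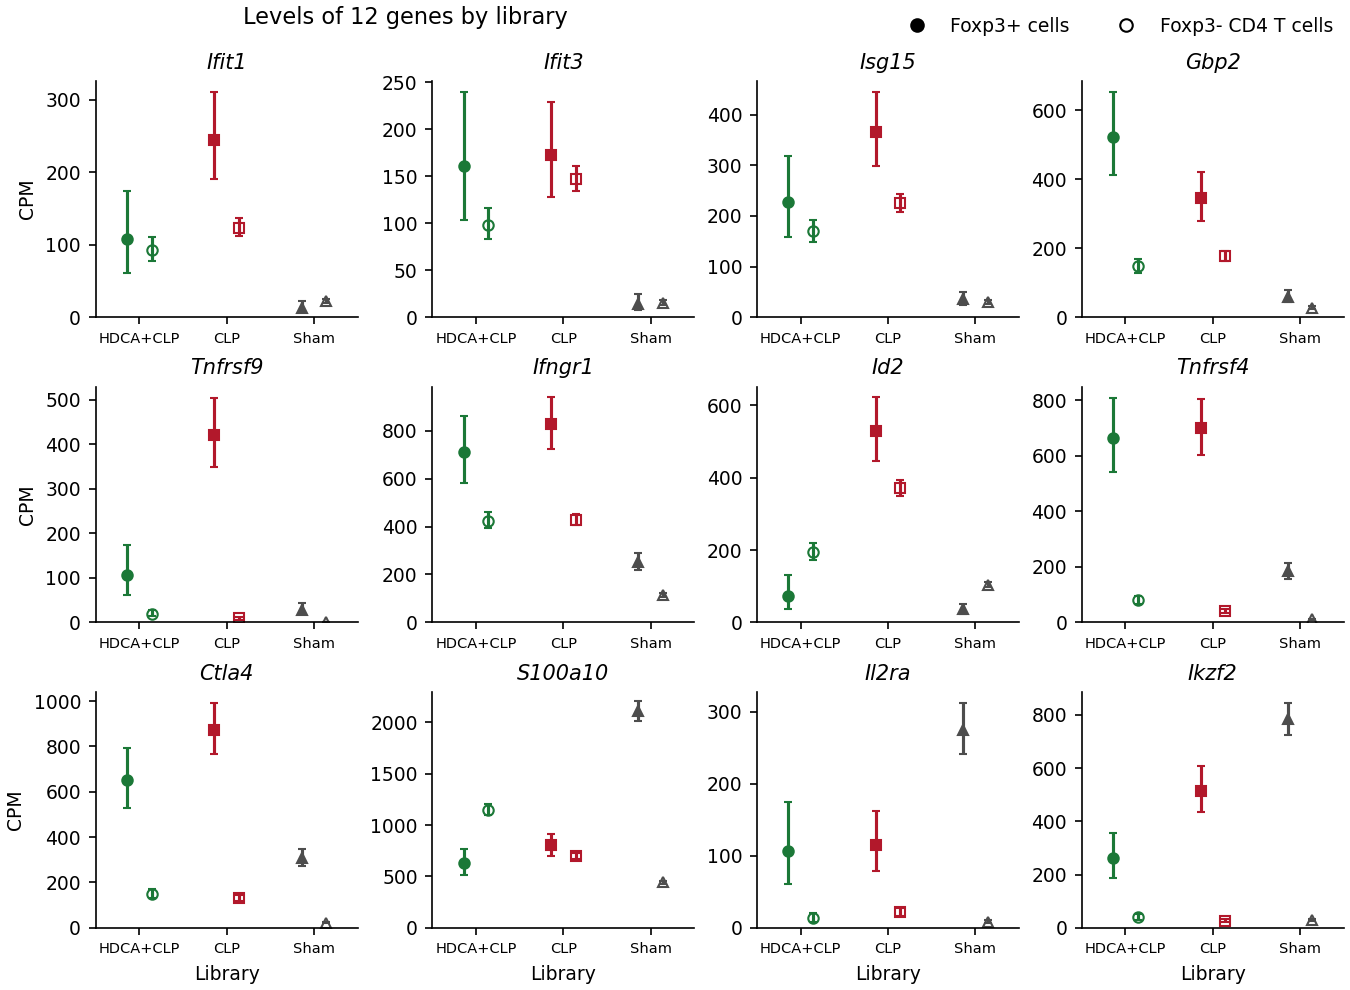
CPM of 12 genes in HDCA+CLP, CLP and Sham, in Foxp3+ cells (filled) and Foxp3- CD4 T cells (open); bars are exact 95% Poisson intervals, 1 library per group. Ifit1, Ifit3, Isg15 and Gbp2 are low in Sham in both classes; Tnfrsf9 and Id2 of the Foxp3+ cells are highest in CLP, and S100a10, Il2ra and Ikzf2 of the Foxp3+ cells are highest in Sham.

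Identity genes split. Of 26 measured, 9 were higher and 17 lower in CLP than in Sham (median log2 -0.27), and 12 and 14 without the monocyte-marker cells (median -0.06). Il2ra was lower in CLP, at 107 CPM in HDCA+CLP, 115 in CLP and 275 in Sham (log2 -1.25, -1.84 to -0.72, and -0.37 without cells with other-type markers), and its share of Foxp3+ cells with a UMI was 32.4%, 33.3% and 60.3%, or 27.8%, 21.8% and 35.7% thinned. Ikzf2 was lower by 0.61 (0.34 to 0.88 lower). Other genes lower in CLP were Nrp1, Gata3 and Klrg1: the semaphorin receptor Nrp1 had 67.0, 46.8 and 115 CPM (log2 -1.30, but 0.13 without cells with other-type markers), the factor Gata3 101, 64.8 and 134 CPM (log2 -1.05), and Klrg1, an inhibitory receptor of terminally differentiated cells, 0, 1 and 35 UMIs. The beta chain Il2rb had the opposite direction to Il2ra, with a higher level in CLP (382, 475 and 295 CPM in HDCA+CLP, CLP and Sham, log2 0.69, 0.37 to 1.00). Thus, over all Foxp3+ cells, Il2ra, Ikzf2 and Klrg1 were lower in CLP while Ctla4, Tnfrsf4 and Tnfrsf9 were higher. Klrg1 rests on few cells, with UMIs in 0 of 37 Foxp3+ cells in HDCA+CLP, 1 of 57 in CLP and 9 of 126 in Sham.

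S100a10, Crip1 and Lgals1 were lower in CLP than in Sham in Foxp3+ cells. S100a10, a partner of annexin A2, had 630, 802 and 2106 CPM in HDCA+CLP, CLP and Sham (log2 -1.39, -1.60 to -1.19, and -2.03 without cells with other-type markers), and in Foxp3- CD4 T cells the ratio had the opposite sign, at log2 0.66 (0.58 to 0.73). Crip1, a LIM-domain protein, had 738, 853 and 1961 CPM (log2 -1.20 against 0.48 in Foxp3- cells), but its ratio in Foxp3+ cells was -0.011 without cells with other-type markers. Lgals1, a galectin, had 335, 522 and 921 CPM in Foxp3+ cells (log2 -0.82, and -3.10 without cells with other-type markers) and 1457, 612 and 137 CPM in Foxp3- CD4 T cells (log2 2.16). For S100a10 and Lgals1, the Foxp3+ ratio thus stayed negative without those Foxp3+ cells, while the ratio over all Foxp3- CD4 T cells was positive. No Foxp3- ratio without cells with other-type markers is given, and 1 library per group gives no test of the difference. The actin-binding thymosins Tmsb10 and Tmsb4x had log2 ratios of -1.25 and -1.04 in Foxp3+ cells and of -0.62 and -0.29 in Foxp3- cells, and Tmsb4x one of -1.66 in Foxp3+ cells without other-type markers.

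Cd69, Rasgrp2 and Rasgrp1 were lower in CLP in both classes. Cd69, an early activation antigen that retains T cells in tissue, had 148, 104 and 361 CPM in Foxp3+ cells (log2 -1.79, -2.39 to -1.24). Rasgrp2, an activator of Rap1 in integrin signalling, had 127, 32.4 and 145 CPM (log2 -2.16, -3.33 to -1.19), and Rasgrp1, which couples the T cell receptor to Ras, 67.0, 39.6 and 140 CPM (log2 -1.83). In Foxp3- CD4 T cells the 3 ratios were -0.90, -0.81 and -1.51. The sestrin Sesn1 (46.9, 25.2 and 128 CPM, log2 -2.34), the helicase Ddx17 (60.4, 28.8 and 144 CPM, log2 -2.32), the ubiquitin ligase subunit Anapc11 (13, 1 and 60 UMIs), Itih5 (8, 2 and 61 UMIs) and the dynein gene Dnah8 (3, 1 and 45 UMIs) were the remaining genes of that direction named by size. Low UMI numbers in CLP make the last 3 ratios imprecise, with an interval from -9.60 to -1.74 for Anapc11. Without cells with other-type markers, the log2 ratio was -0.70 for Anapc11, -0.64 for Dnah8 and -3.37 for Sesn1.

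The 8 genes named for the highest CLP over Sham ratios drew most of their CLP UMIs from the monocyte-marker cells: Saa3, Wfdc17, Fcer1g, Tgfbi, F13a1, Cxcl10, Ccl2 and Clec4e. Saa3, an acute phase protein, had 2568 CPM in HDCA+CLP, 10620 in CLP and 1.16 in Sham, and without those cells 14.7, 122 and 1.16 CPM, while the monocytes of the same libraries had 39290, 31370 and 204 CPM. Tgfbi and F13a1 had no UMI left in any library without those cells.

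HDCA+CLP was then compared with CLP over 2949 genes, a comparison limited by 37 cells and 149139 UMIs. Past 2-fold lay 113 genes higher in HDCA+CLP (3.83%) and 233 lower (7.9%), and without the monocyte-marker cells 81 (3.42%) and 159 (6.71%) of 2369. The genes of the effector state were lower almost throughout: 22 of 23 measured, with a median log2 ratio of -0.64 beside -0.09 over all genes, and 19 of 22 without the monocyte-marker cells (median -0.77). Of the same list, 19 of 27 genes were higher in HDCA+CLP in Foxp3- CD4 T cells (median 0.40 beside 0.11 over all genes). The genes of the resting state were higher in 13 of 17 cases in Foxp3+ cells, with a median of 0.44 (11 of 17 and 0.29 without those cells), but without all cells with other-type markers the median was -0.37. The effector median under that criterion was -1.46.

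Ly6c1, a surface antigen of T cells, was among the genes higher in HDCA+CLP, with 442, 64.8 and 183 CPM in Foxp3+ cells of HDCA+CLP, CLP and Sham and UMIs in 15, 12 and 47 cells. HDCA+CLP was 6.83-fold above CLP (log2 2.77), and without the monocyte-marker cells the log2 ratio was 2.52. In both settings CLP was the lowest of the 3 libraries. Without cells with other-type markers the log2 ratio was 2.12. The lymphoid factor Ikzf1 (Ikaros) had 288, 122 and 153 CPM (log2 1.24, 0.55 to 1.93) and Rasgrp2 127, 32.4 and 145 CPM (log2 1.98, 0.76 to 3.30). Fam46c (141, 36.0 and 93.9 CPM), Ssbp2 (148, 43.2 and 95.1 CPM) and Mbtps1 (101, 25.2 and 45.2 CPM) had the same order of CLP below the others. Malat1, a nuclear non-coding RNA, had 32670, 20270 and 19480 CPM (log2 0.69). The histone gene Hist1h2ap, with 53 UMIs in HDCA+CLP, had all of them in 1 cell.

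On the lower side, Tnfrsf9 and Id2, which were high in CLP, stood out once the monocyte-marker cells were left out. Tnfrsf9 was lower in HDCA+CLP than in CLP by 1.97 on the log2 scale (1.21 to 2.83 lower), or 3.92-fold. Id2 was lower by 2.84 (1.96 to 3.88 lower), and by 3.83 without those cells, when 29.4 CPM remained in HDCA+CLP. S100a4, a calcium-binding protein of migrating effector cells, had 241, 630 and 745 CPM (log2 -1.38, -1.94 to -0.86), with 69.4% of its HDCA+CLP UMIs in 1 cell, and S100a13 had 80.5, 216 and 235 CPM (log2 -1.42). Glrx, a glutaredoxin, had 53.6, 302 and 131 CPM (log2 -2.49, -3.75 to -1.45).

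Ctla4 and Tnfrsf4 were closer between HDCA+CLP and CLP than Tnfrsf9 was, and the interval of Il2ra was wide. Ctla4 was lower by 0.43 (0.08 to 0.78 lower), Tnfrsf4 differed by -0.07 (-0.44 to 0.28), and -0.57 (-0.98 to -0.17) without the monocyte-marker cells, and Il2ra by -0.10 (-1.07 to 0.81). Without cells with other-type markers, Tnfrsf4 differed by 0.49 and Il2ra by -1.37. Ikzf2 was lower in HDCA+CLP, at 262 CPM (186 to 357) against 514.5 CPM (434 to 606) in CLP (log2 -0.98, -1.53 to -0.46). Type I interferon genes had a median log2 ratio of -0.38 (18 of 27 lower) and interferon-gamma genes one of 0.12 (9 of 16 higher), and these medians were -0.15 and 0.01 without the monocyte-marker cells and 0.083 and -0.048 without cells with other-type markers. Of single genes, Ifit1 was lower by 1.19 (0.39 to 2.08 lower), but its ratio was 0.43 without Foxp3+ cells with other-type markers, which left 19 cells in HDCA+CLP and 23 in CLP. Tgfb1, which encodes the suppressive cytokine TGF-beta 1, had 2, 20 and 59 UMIs (log2 -2.42, -5.57 to -0.38). The genes Cxcl10, Ccl2, Il1b, Apoe, F13a1, Tgfbi and Plek, lower in HDCA+CLP by size, had at most 14.1 CPM in any library without the monocyte-marker cells.

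Summed levels showed how the lists compared with other CD4 T cells. The effector list summed to 5196 CPM in Foxp3+ cells of HDCA+CLP, 8739 in CLP and 10150 in Sham, against 9863, 6304 and 2320 CPM in Foxp3- CD4 T cells. The ratio of Foxp3+ over Foxp3- was thus 0.527 (0.490 to 0.566) in HDCA+CLP, 1.39 (1.33 to 1.45) in CLP and 4.37 (4.26 to 4.49) in Sham. Foxp3- CD4 T cells under the limit for other-type markers numbered 156 of 285 in HDCA+CLP, 288 of 542 in CLP and 852 of 1228 in Sham. They held 558708 of 1453795, 1214861 of 3046007 and 5409401 of 8346366 UMIs, and the ratios of list sums were not computed on them alone. The list of suppressive effectors and checkpoints summed to 2957, 4530 and 2585 CPM in Foxp3+ cells, with ratios of 1.02, 2.72 and 5.43. In HDCA+CLP, Lgals1 (2118 UMIs) and Gzmb (954 UMIs) gave most of the 4233 UMIs of that list in Foxp3- CD4 T cells, while Ctla4, Tnfrsf4, Tnfrsf9 and Lrrc32 of the same list were higher in Foxp3+ cells there. For both lists the Foxp3- sums were highest in HDCA+CLP and lowest in Sham, and both classes enter the ratio. The identity list, by contrast, summed to 4841, 5386 and 4550 CPM, 2.31, 2.82 and 2.89 times the Foxp3- level. Cell cycle genes summed to 2246, 1993 and 1805 CPM in Foxp3+ cells and to 4535, 2457 and 1313 CPM in Foxp3- CD4 T cells, a ratio of 0.495 (0.443 to 0.553) in HDCA+CLP and 1.37 (1.30 to 1.45) in Sham.

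**Figure D4:**
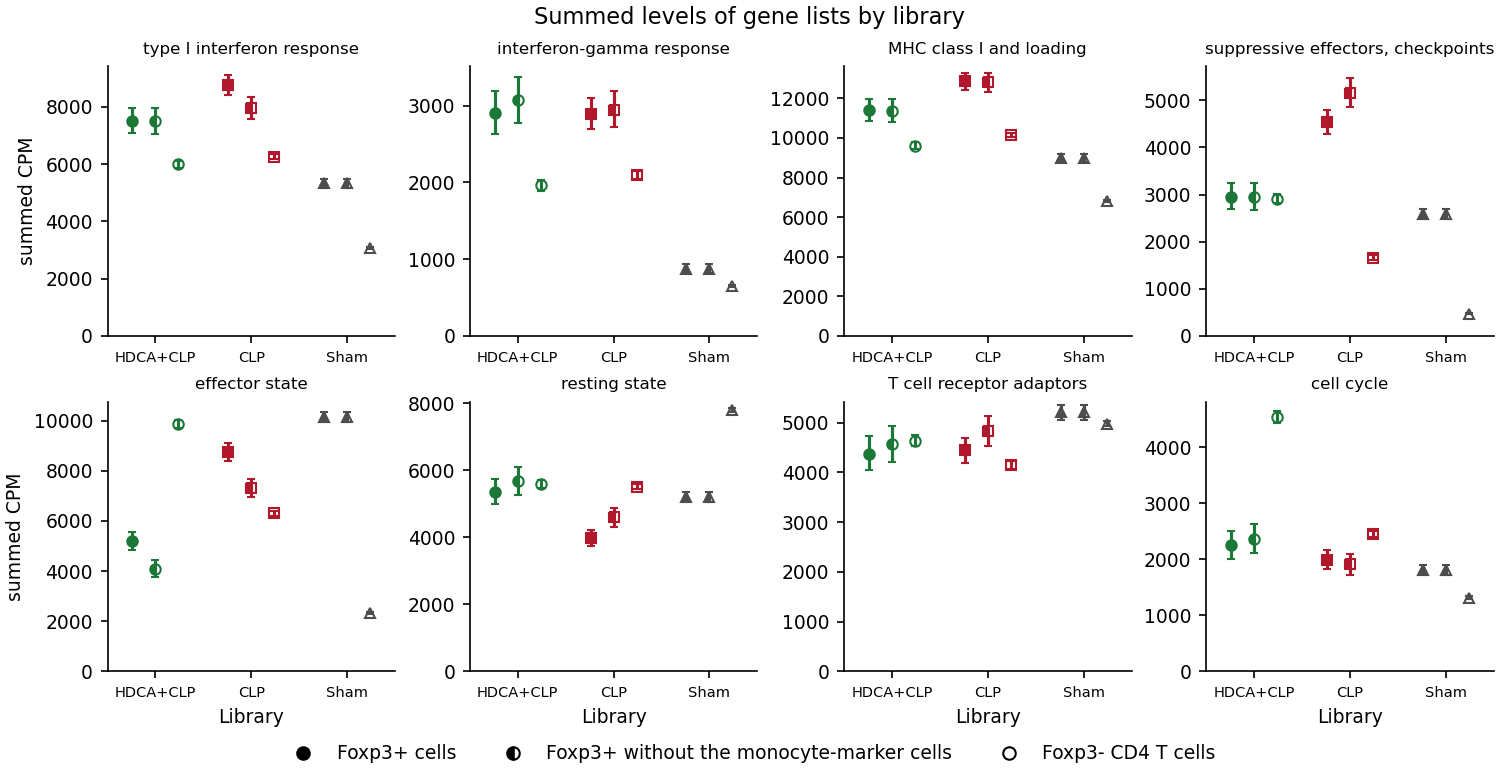
Summed CPM of 8 gene lists in HDCA+CLP, CLP and Sham, for Foxp3+ cells (filled), Foxp3+ cells without the monocyte-marker cells (half-filled) and Foxp3- CD4 T cells (open); bars are exact 95% Poisson intervals. The effector list of Foxp3+ cells is 5196 CPM in HDCA+CLP, 8739 in CLP and 10150 in Sham, while in Foxp3- CD4 T cells it is 9863, 6304 and 2320.

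Members also differed among themselves, described here for cells with and without a Ctla4 UMI. S100a4 was found in cells with a Ctla4 UMI, at 319 CPM in 26 cells of HDCA+CLP, 690 CPM in 51 cells of CLP and 900 CPM in 88 cells of Sham, whereas cells without one had 0, 0 and 278 CPM in 11, 6 and 38 cells. Ikzf2 was 248 CPM (165 to 359) with Ctla4 and 303 CPM (151 to 541.5) without in HDCA+CLP, 548 CPM (461 to 647) and 164 CPM (44.7 to 420) in CLP, and 836.5 CPM (767.5 to 910.1) and 622 CPM (521 to 736.5) in Sham. Its intervals were thus apart in CLP and Sham and overlapped in HDCA+CLP, but they cover the counting of pooled UMIs and not the spread between cells. Counted by cell, an Ikzf2 UMI was in 13 of 26 cells with Ctla4 and 6 of 11 without in HDCA+CLP. The counts were 37 of 51 and 3 of 6 in CLP, and 73 of 88 and 26 of 38 in Sham. The difference between cells with and without a Ctla4 UMI was not tested. S100a4 itself came from few cells, 3 in HDCA+CLP, 14 in CLP and 35 in Sham.

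Interferon genes were followed through other cell types of the same blood. Ifit1 in CD8 T cells stood at 83.6, 85.3 and 15.5 CPM in HDCA+CLP, CLP and Sham, in neutrophils at 150, 132 and 7.95 CPM and in B cells at 8.05, 5.61 and 2.10 CPM. The low level in Sham was therefore shared by each of these classes. Over all Foxp3+ cells, the 245 CPM in CLP was above the 132 CPM of neutrophils there. Foxp3+ cells with other-type markers enter that value, and the comparison with neutrophils was not repeated without them. Gbp2 in CD8 T cells was 223, 165 and 33.4 CPM and in neutrophils 104, 119 and 64.6 CPM, under the 523 and 345 CPM of Foxp3+ cells in HDCA+CLP and CLP.

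Further lists described the class in CLP against Sham. Their counts and medians are to be read beside the median over all measured genes, given above with the interferon genes. Whether these lists differ from all measured genes was not tested. Genes of the resting state were lower in 15 of 18 cases (median log2 -0.36, but 0.16 without cells with other-type markers), T cell receptor adaptors in 16 of 23 (median -0.31) and genes of trafficking and homing in 13 of 19 (median -0.33). Glucocorticoid-response genes were higher in 8 of 12 cases with a median of 0.97, or 0.66 without the monocyte-marker cells and 0.44 without cells with other-type markers. Immediate-early and dissociation-response genes, of which 11 were measured, were higher in 8, with a median of 0.53 (0.75 without the monocyte-marker cells), and their summed level in CLP was 1.44 times that in Sham (1.35 to 1.53). Their part in the other results was not tested. The effector list was split evenly in Foxp3+ cells, with 13 of 26 higher (median 0.23, and -0.39 without cells with other-type markers), whereas in Foxp3- CD4 T cells 24 of 25 were higher (median 1.48). Only 8 cell cycle genes could be measured in Foxp3+ cells, with a median of -0.38.

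Of the helper lineage genes, Gata3 is given above. Tbx21, Ifng and Il2 each had at most 3 UMIs in the Foxp3+ cells of any library, below what this depth can compare.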

How the data were processed

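Single-cell 3′ RNA was measured in mouse blood from 3 libraries, 1 each for HDCA+CLP, CLP and Sham. The deposited values are UMI counts per gene and cell barcode, not normalized, per the file headers and values; Cell Ranger 5.0.1, Seurat 4.0.6, R 4.0.3 and the build mm39 are named in the submitters' processing notes. Per the labels' protocols, samples were digested with hyaluronidase and DNase I and libraries were made with the Chromium 3′ v3 kit.

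From these counts, cells were kept at 500 UMIs, 200 genes and at most 10% mitochondrial UMIs, which left 29754 of 30751 barcodes. Doublets were called with a simulated-doublet neighbour score (scikit-learn 1.9.0) and kept in the main results. The total counts were 95178381 UMIs in HDCA+CLP, 87031721 in CLP and 42427093 in Sham. The members and gene lists, and the fixed list of tests, were chosen with earlier results of these data known; the monocyte-marker alternative was chosen after seeing the data.

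UMIs were summed per library and class. Between libraries there is 1 sample a group and no test: ratios of CPM have conditional binomial intervals, levels exact Poisson and shares exact Clopper-Pearson intervals at 95%, all for counting error only, and a count of 0 was set to a floor of 3. Between classes, edgeR 4.0.16 quasi-likelihood tests (R 4.3.3, limma 3.58.1) used the library as a block, because both classes come from the same library, with TMM scaling; DESeq2 1.42.0 was an alternative. Python 3.11.15, NumPy 2.4.6, SciPy 1.17.1, pandas 2.3.3 and matplotlib 3.10.9 were used, and the tests were tried on simulated data.

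Genes were named by a rule: 8 in each direction of a library comparison, ranked by the interval bound nearest 0, with at least 20 UMIs over both libraries and 50 CPM in the higher one; and 10 in each direction of the class comparison among called genes with 1 sign in all 3 libraries and at least 50 CPM in the higher class of each library. All measured identity genes and the 3 highest and 3 lowest of each list were added. Gating, mitochondrial, ribosomal, haemoglobin, antigen receptor and predicted genes, sex-linked markers, and genes under 20% of their level in another blood cell type were left out of the rule. Other genes named in the text were chosen after their values were seen. Some genes are not reported here.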

Additional observations from a re-analysis of the deposited data

How the results depend on the processing

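Most single-gene class results had the same call under the alternatives: for 1106 it was unchanged, called or not, 75 gained a call, 87 lost one and 3 reversed. Sign changes of genes called in neither setting were not counted as reversed and are among the 1106. Calls numbered 146 higher and 67 lower, and 27 lower with DESeq2, 260 and 232 without requiring Cd4 of the Foxp3- cells, and 229 and 177 without the filter on low counts. Without each library in turn the calls ranged from 121 to 255 higher and from 55 to 156 lower, lowest without CLP; 255 higher were called without Sham and 156 lower without HDCA+CLP. With no replicate block, that is, without the library pairing, 11 were higher and 2 lower. No paired analysis was possible because each library comparison has 1 library per group.

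The share of T cells was 1.22%, 1.11% and 2.04% in HDCA+CLP, CLP and Sham with 2 Foxp3 UMIs required, 1.86%, 1.07% and 2.05% after thinning, and 4.94% in Sham with a mitochondrial limit of 5%. Genes past 2-fold in CLP over Sham numbered 202 higher and 234 lower with a minimum of 50 UMIs, 1148 and 1091 with no minimum, and 235 higher without cells carrying other-type markers. For HDCA+CLP over CLP they numbered 12 and 62 with 50 UMIs, 601 and 1021 with no minimum, 139 lower without doublets, and 20 and 59 without cells carrying other-type markers.

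Single genes reversed as follows, in log2 units, and the cause was not tested: Pgam1 in CLP over Sham to -0.54 without doublets and -0.44 without the monocyte-marker cells, Nrp1 to 0.13 without cells carrying other-type markers, Cdkn1a and Pgam1 in HDCA+CLP over CLP to 0.0035 and 0.082 as means over cells, Ifit1 to 0.43 without cells carrying other-type markers, and, in the class comparison, Lgals1 to -1.17 without Sham (up to 1.18 without HDCA+CLP) and Cxcl10 to -1.98 without doublets and -1.62 without the monocyte-marker cells. Between libraries, a reversal was counted only for genes past 2-fold in the main results, so sign changes of smaller ratios are not listed. Ccr7, for example, had 235 CPM in HDCA+CLP and 158 CPM in CLP over all Foxp3+ cells. Its log2 ratio of HDCA+CLP over CLP was -0.83 without cells carrying other-type markers. Depth limits HDCA+CLP most, with 37 Foxp3+ cells.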
